A study of Mus musculus with 10 samples.

Results

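The genes examined here were Ptma, Eef1a1, Cks2 and BC051142, 4 of the 28125 genes of the scRNA-seq matrix and of the 30670 genes of the scATAC-seq matrix. They were chosen by their RNA ratio between spermatogonia (SpG) of the Nfya-CKO library and undifferentiated (undiff.) SpG, which was among the lowest of all genes, so that RNA difference is described here and not tested. Nuclei of mouse testes were assayed for RNA and open chromatin, with 1 library per condition and assay and 10 libraries in all. The conditions were C57BL/6J wild-type testes at 11, 17 and 25 days post partum (dpp), and testes of adult males of 8 weeks, either Cre/+ or Nfya-CKO. Both 8-week genotypes carried Stra8-Cre, a Cre recombinase active in premeiotic germ cells, and Nfya-CKO males also carried floxed Nfya alleles, from which Cre removes exons in germ cells but not in somatic cells. Values were pooled by the authors over the cells of each of 13 populations, so there is no replicate and no error for any value below, and differences are given by size alone.

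Ptma encodes prothymosin alpha, a small and very acidic nuclear protein that binds linker histone and is abundant in proliferating cells. Eef1a1 encodes the main isoform of translation elongation factor eEF1A, which carries aminoacyl-tRNA to the ribosome. Cks2 encodes a small subunit that binds cyclin-dependent kinases and is required in germ cells to leave metaphase of the first meiotic division. BC051142, for which RefSeq lists the synonyms NG8, Tesb, Tesbp and TSBP, is a testis-expressed gene of the major histocompatibility region. NFYA is the sequence-specific subunit of NF-Y, a trimeric factor that binds the CCAAT box in the promoters of many housekeeping and cell cycle genes.

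The sequence before the start of each gene is shown because NF-Y recognizes CCAAT, and the genes differed in whether they held it. Sequences are from RefSeq (GRCm38.p6), 5′ to 3′ on the strand of the gene, and capitals mark CCAAT or its reverse complement ATTGG. All 4 genes were found in the promoter table. The stretches are chr1:86526307-86526556 (+) for Ptma, chr9:78481725-78481974 (-) for Eef1a1, chr13:51644982-51645231 (+) for Cks2 and chr17:34398570-34398766 (+) for BC051142. For BC051142 a further site of 25 bases, chr17:34398779-34398803, is given on its own because predicted transcripts of the gene start at 34398767, 53 bases before the start used in the table.
Ptma: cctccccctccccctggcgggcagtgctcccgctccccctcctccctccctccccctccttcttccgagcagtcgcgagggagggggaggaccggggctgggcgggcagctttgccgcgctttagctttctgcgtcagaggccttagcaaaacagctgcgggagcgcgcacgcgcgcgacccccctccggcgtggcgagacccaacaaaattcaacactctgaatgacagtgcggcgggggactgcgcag
Eef1a1: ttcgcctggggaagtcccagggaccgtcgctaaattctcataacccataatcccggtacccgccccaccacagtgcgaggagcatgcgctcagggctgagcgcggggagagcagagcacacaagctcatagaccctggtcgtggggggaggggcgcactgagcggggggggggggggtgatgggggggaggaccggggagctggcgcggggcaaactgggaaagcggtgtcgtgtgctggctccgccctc
Cks2: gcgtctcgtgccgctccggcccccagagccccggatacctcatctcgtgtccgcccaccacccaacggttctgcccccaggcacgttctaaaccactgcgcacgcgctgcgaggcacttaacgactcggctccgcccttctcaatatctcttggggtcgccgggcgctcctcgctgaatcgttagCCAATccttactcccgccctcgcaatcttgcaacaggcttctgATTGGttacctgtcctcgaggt
BC051142: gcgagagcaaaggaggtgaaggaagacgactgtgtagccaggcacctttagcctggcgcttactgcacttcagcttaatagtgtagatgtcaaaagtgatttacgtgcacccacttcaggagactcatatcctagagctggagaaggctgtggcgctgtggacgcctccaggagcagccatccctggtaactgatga
BC051142 site: cagcctcttgATTGGaccagggaat

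Cks2 held 4 CCAAT boxes, counted on both strands, in the window from 250 bases before to 50 bases after its start. They began 65 and 22 bases before the start and at positions 15 and 33 after it. BC051142 held 1, beginning 31 bases before the table's start, and Ptma and Eef1a1 held none. Of 32851 RefSeq windows of the same 300 bases, 37.4% held CCAAT on either strand and 1.06% held 4 or more. With longer words on either strand, that is CCAAT with A before it or with C or G after it, Ptma and Eef1a1 again had no match, Cks2 had 6 matches, some of which overlap, BC051142 had 1, and 29.3% of windows had at least 1. A search for GGGCGG on either strand, a word of Sp-type promoters chosen after the sequences were seen, found 1 match in Ptma, 2 in Eef1a1, 3 in Cks2 and none in BC051142, against 35.7% of windows with a match. The GC content before the start was 69.2% for Ptma, 68% for Eef1a1, 62.4% for Cks2 and 52.8% for BC051142, against a median of 52.4% over all windows. These matches describe the letters of the windows and not binding.

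Ptma spans chr1:86526557-86530712, Eef1a1 spans chr9:78478453-78481724, Cks2 spans chr13:51645232-51650662 and BC051142 spans chr17:34398767-34460734. Ptma and Eef1a1, with spans of 4156 and 3272 bases, were in decile 1, the shortest, of the genes compared. Cks2, with 5431 bases, was in decile 2, and BC051142, with 61968 bases, in decile 8. Ptma and Eef1a1 also have processed pseudogenes in the mouse genome. Only uniquely aligned reads were kept, so reads shared with such copies were not counted and the levels of both genes are uncertain to that extent. In GENCODE, a pseudogene on the opposite strand, Gm15320, overlaps the start of BC051142, and whether reads were counted by strand is not given in the sources used here.

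The libraries differed in ways that bear on every comparison below. The 45250 scRNA-seq cells had a median of 3070 UMIs (unique molecular identifiers, counted once per RNA molecule), and the 5 scRNA-seq libraries held 30227701 to 64967271 UMIs each. SpG Nfya-CKO were 491 cells with a median of 18361 UMIs, and undiff. SpG were 1292 cells with a median of 9290 UMIs. Of the undiff. SpG cells, 7.97% came from 8-week libraries and the rest from testes of 11 to 25 dpp, whereas all SpG Nfya-CKO cells came from 8-week testes. Genotype and age therefore cannot be told apart in that comparison. Differentiating (diff.) SpG, 84.5% of which came from the Cre/+ library, are the control spermatogonia nearest in age.

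Libraries also shared cell barcodes, read here as the number in each cell's name. In scRNA-seq, 5030 of 39674 barcodes occurred in 2 or more libraries, compared with 982 of 342825 in scATAC-seq. Of the 5152 cells of the Nfya-CKO library, 3813 (74%) had a barcode that was also a cell of the Cre/+ library, whereas the Nfya-CKO library shared 0 to 10 barcodes with each wild-type library. Of the 491 SpG Nfya-CKO cells, 175 had a Cre/+ counterpart, 143 of which were called diff. SpG, and in all 175 the Nfya-CKO member had more UMIs. Of the 783 Cre/+ cells among diff. SpG, 448 (57.2%) had a barcode of the Nfya-CKO library. Barcodes shared between the 8-week libraries made up 4.49% of undiff. SpG and 0.227% of preleptotene spermatocytes (pL), but also 61.7% of other somatic cells (as Nfya-CKO cells) and 59.4% of elongating spermatids (as Cre/+ cells). Wild-type libraries shared barcodes among themselves as well, since 18.8% of cells at 17 dpp had a barcode of the 11 dpp library and 22.8% one of the 25 dpp library. Counted over all libraries, 32.5% of undiff. SpG and 19% of pL had a barcode found in another library, compared with 49.1% of diff. SpG and 35.6% of SpG Nfya-CKO. Whether cells with a shared barcode are 1 physical cell counted in both libraries could not be settled, so the comparison of SpG Nfya-CKO with diff. SpG may hold the same cells on both sides. Values without these cells could not be computed from pooled columns, so the part of shared barcodes in the results was not tested.

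The labelled identity of the SpG Nfya-CKO population was checked against marker genes. Zbtb16 was 4.15 UMIs per 10000 in SpG Nfya-CKO, 8.74 in undiff. SpG and 1.20 in diff. SpG. Gfra1, which encodes the GDNF co-receptor of stem spermatogonia, was 1.20, 1.08 and 0.198 in the same order. Sall4 was 2.08, 4.88 and 0.907. Of the other markers in the list of 8, Uchl1 was 11.0, 5.88 and 4.79, Dmrt1 was 4.48, 3.76 and 4.43, and Dmrtb1 was 0.173, 0.133 and 1.04. Kit, a receptor of differentiating spermatogonia, was 1.08, 0.548 and 1.56, and Stra8, which is induced by retinoic acid, was 0.969, 2.05 and 2.59. Against undiff. SpG, 3 of the 8 were at least 2-fold lower, beside 3.40% of all genes compared, and 5 had a higher level, beside 53.5% of all genes. Nfya RNA itself, 1.11 in SpG Nfya-CKO, was above its level in undiff. SpG (0.456) and in diff. SpG (0.667). A level over the whole gene does not measure the deleted exons, so it checks neither the label nor the deletion. The summed level of 5 Leydig cell markers was 49.3 in SpG Nfya-CKO, 0.208 in undiff. SpG and 218 in other somatic cells, and that of 9 Sertoli cell markers was 29.4, 6.67 and 120. Within those sums Insl3 was 39.8 and Clu was 22.8 in SpG Nfya-CKO. The summed level of 5 spermatid markers was 0.149 in SpG Nfya-CKO, 0.579 in undiff. SpG and 8.71 in diff. SpG. Dazl and Ddx4, markers of all germ cells, were 6.80 and 2.28 in SpG Nfya-CKO. They were 13.2 and 3.20 in undiff. SpG and 12.8 and 3.36 in diff. SpG.

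In SpG Nfya-CKO, RNA of all 4 genes was far below that in undiff. SpG. Ptma was 0.826 UMIs per 10000 in SpG Nfya-CKO against 14.5 in undiff. SpG, and Eef1a1 was 1.80 against 22.0. Cks2 was 0.0878 against 1.26, and BC051142 was 0.186 against 1.80. As log2 ratios of the level plus a pseudocount of 0.1, the differences were -3.98 for Ptma, -3.54 for Eef1a1, -2.86 for Cks2 and -2.73 for BC051142. They held ranks 1, 2, 4 and 5 from the lowest of the 13954 genes compared, whose mean in the pair reached 0.05 and whose median ratio was 0.04. All 4 were at least 2-fold lower, as were 3.40% of genes, and because this ratio chose the genes nothing is read from that count. With a pseudocount of 1, all 4 were at least 2-fold lower, as were 0.322% of genes, and nothing is read from this count either. Rank 3 was held by a row with no RefSeq symbol, at -2.92, and genes soon after BC051142 included Ran (-2.67) and Gm3550 (-2.66).

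**Figure D1:**
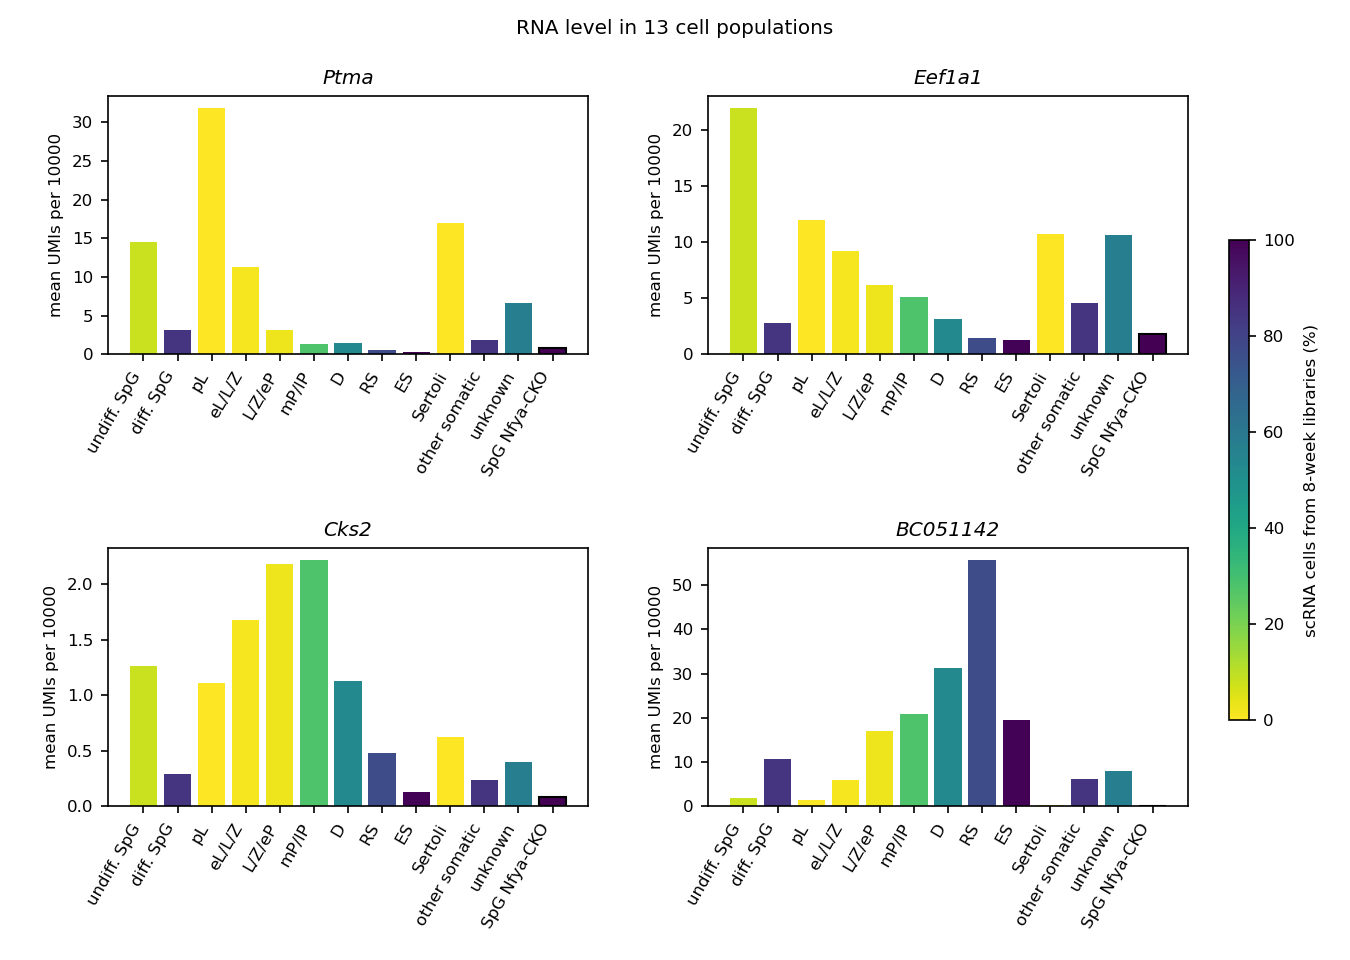
RNA level (mean UMIs per 10000, bars from 0) of each gene in the 13 populations, coloured by the percentage of scRNA-seq cells from 8-week libraries, with SpG Nfya-CKO outlined in black. Ptma peaked at 31.8 in pL, Eef1a1 at 22.0 in undiff. SpG, Cks2 at 2.21 in mP/lP and BC051142 at 55.6 in RS.

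Across the populations, Ptma and Eef1a1 were high before and at meiotic entry, apart from diff. SpG and SpG Nfya-CKO, and low afterwards. Ptma was highest in pL at 31.8, 1.87-fold above Sertoli cells (17.0), followed by undiff. SpG (14.5) and early leptotene to zygotene cells (eL/L/Z, 11.3). It was 3.11 in the later leptotene, zygotene and early pachytene cells (L/Z/eP) and 3.08 in diff. SpG. Levels of Ptma were 1.35 in middle and late pachytene (mP/lP), 1.46 in diplotene (D), 0.518 in round spermatids (RS) and 0.270 in elongating spermatids (ES), its lowest value. SpG Nfya-CKO, at 0.826, were eleventh of the 13, between D and mP/lP above and RS below. Thus Ptma RNA in these spermatogonia was closer to that of spermatids than to that of any other premeiotic population.

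Eef1a1 was highest in undiff. SpG at 22.0, 1.83-fold above pL (12). Sertoli cells (10.8) and the unknown population (10.6) lay close together, followed by eL/L/Z (9.23) and L/Z/eP (6.17). Lower levels were found in mP/lP (5.10), other somatic cells (4.56) and D (3.16). Diff. SpG had 2.76, RS 1.49 and ES 1.27. SpG Nfya-CKO, at 1.80, were again eleventh, above RS and ES only.

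Cks2 was highest in the middle of meiotic prophase and lowest of all in SpG Nfya-CKO. It was 2.21 in mP/lP and 2.18 in L/Z/eP, values 1.02-fold apart, then 1.68 in eL/L/Z, 1.26 in undiff. SpG, 1.12 in D and 1.11 in pL. Sertoli cells had 0.626, RS 0.482, the unknown population 0.396, diff. SpG 0.289, other somatic cells 0.239 and ES 0.126. The level in SpG Nfya-CKO, 0.0878, was 25.2-fold below that in mP/lP.

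BC051142 was highest after meiosis. It was 55.6 in RS, 1.77-fold above D (31.4), then 20.8 in mP/lP, 19.5 in ES, 17.0 in L/Z/eP and 10.7 in diff. SpG. The unknown population had 8.01, other somatic cells 6.11, eL/L/Z 5.87, undiff. SpG 1.80, pL 1.43 and Sertoli cells 0.274. SpG Nfya-CKO were last at 0.186, which is 298-fold below RS. Hence Cks2 and BC051142 had their lowest level of the 13 populations in SpG Nfya-CKO, whereas Ptma and Eef1a1 were lower still in RS and ES.

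The levels of the genes also moved with the age of the testes behind each population. In the 5 populations with under 10% of cells from 8-week libraries, Ptma ranged from 3.11 to 31.8 with a median of 14.5. In the 7 others, SpG Nfya-CKO left out, 27.9% (mP/lP) to 99.6% (ES) of cells came from 8-week libraries, and it ranged from 0.270 to 6.58 with a median of 1.46. Eef1a1 ranged from 6.17 to 22.0 in the populations with under 10% and from 1.27 to 10.6 in the others, with medians of 10.8 and 3.16. Cks2 ranged from 0.626 to 2.18 and from 0.126 to 2.21, with medians of 1.26 and 0.396. BC051142 went the other way, from 0.274 to 17.0 with a median of 1.80 in the populations with under 10% and from 6.11 to 55.6 with a median of 19.5 in the others. The groups overlapped for all 4 genes, and they also differ in cell type, so the part of age in these levels was not tested.

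Against diff. SpG, most of which share the age of the knockout testes, the 4 genes separated. Ptma in diff. SpG was 3.08 against 0.826, a log2 ratio of -1.78 and rank 514 of 14740 genes. Cks2 was 0.289 against 0.0878, a log2 ratio of -1.05 and rank 1500. Eef1a1 was 2.76 against 1.80, a log2 ratio of -0.59 and rank 2905, so it was under 2-fold apart. BC051142 was 10.7 against 0.186, a log2 ratio of -5.23 and the lowest of all genes compared. At least 2-fold lower were 3 of the 4 genes and 10.9% of all genes, while 7.44% of all genes were at least 2-fold higher. With a pseudocount of 1 the log2 ratio of Cks2 was -0.24, so that 2 of the 4 genes were then at least 2-fold lower, beside 0.896% of all genes. Both comparisons use the same SpG Nfya-CKO column, so they are not independent. Of the diff. SpG cells behind these values, 48.4% were Cre/+ cells with a barcode of the Nfya-CKO library.

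Against pL, most of which came from testes of 11 and 17 dpp, all 4 genes were again at least 2-fold lower, as were 5.37% of all genes. The log2 ratios were -5.11 for Ptma, -2.67 for Eef1a1, -2.69 for Cks2 and -2.41 for BC051142. This control was chosen after the data were seen, and it too shares the SpG Nfya-CKO column.

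**Figure D2:**
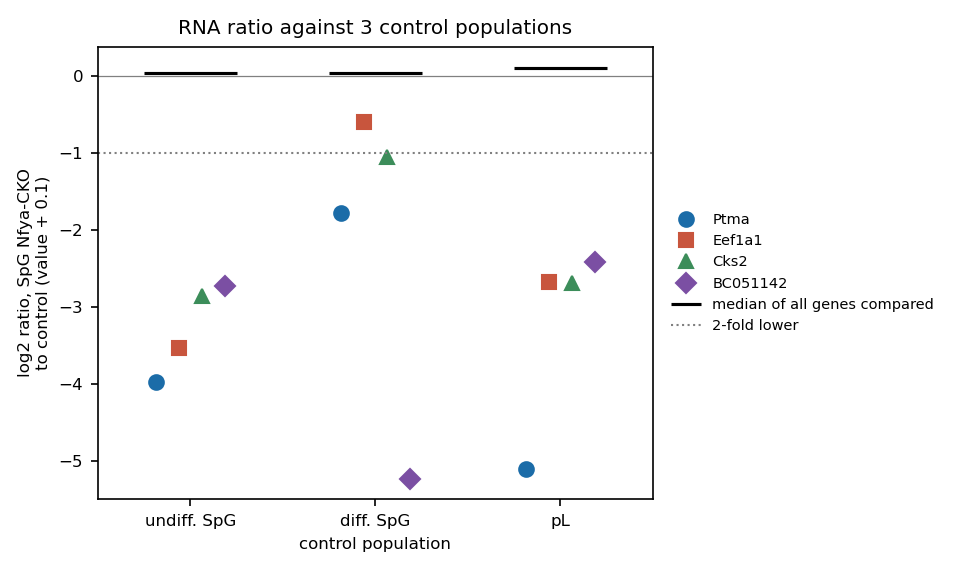
Log2 RNA ratio of SpG Nfya-CKO to each of 3 control populations (pseudocount 0.1), with 1 marker per gene, black bars at the median of all genes compared and a dotted line at 2-fold lower. Eef1a1 was at -3.54 against undiff. SpG and -0.59 against diff. SpG, whereas BC051142 was at -2.73 and -5.23.

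The BC051142 level in control spermatogonia was set beside those of spermatid genes. Acrv1, which encodes an acrosomal protein of spermatids, was 7.19 in RS, 1.18 in diff. SpG, 0.157 in undiff. SpG and 0.00975 in SpG Nfya-CKO. As a share of the RS level, BC051142 was 19.2% in diff. SpG and Acrv1 was 16.5%, whereas Acr was 30.2%, Prm2 32.4%, Tnp1 34.3% and Prm1 38.4%. The share of BC051142 was thus above that of Acrv1 and below those of the other 4 spermatid markers. In undiff. SpG the order differed, as BC051142 was at 3.24%, above Acrv1 (2.19%), Tnp1 (2.09%), Prm2 (1.73%) and Prm1 (1.51%) and below Acr (3.87%). In SpG Nfya-CKO BC051142 was at 0.336%, below Tnp1 (1.79%) and Acr (1.48%) and above Prm1 (0.167%), Acrv1 (0.136%) and Prm2 (0.0430%). Tnp1 was 0.0783 in SpG Nfya-CKO and 0.0915 in undiff. SpG, a log2 ratio of -0.10, so the spermatid markers were not all lower to a like degree. The quotient of the BC051142 and Acrv1 levels was 7.73 in RS, 9.01 in diff. SpG and 11.5 in undiff. SpG, but 35.8 to 44.2 in the spermatocyte populations from eL/L/Z to mP/lP and 164 in pL. It was 15.3 in D and 19.1 in SpG Nfya-CKO, where both levels were low. Prm1, which encodes a protamine, was 3.94 in diff. SpG and 0.0171 in SpG Nfya-CKO. The part of spermatid RNA in the BC051142 level of control spermatogonia was not tested.

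**Figure D3:**
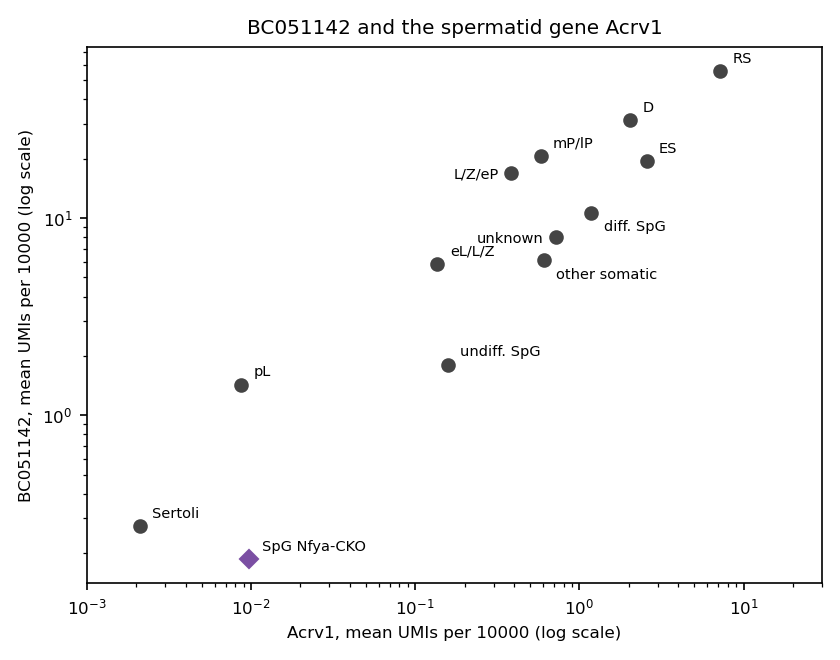
BC051142 level against Acrv1 level in the 13 populations (mean UMIs per 10000, both axes logarithmic), with SpG Nfya-CKO as the purple diamond. The quotient of the levels was 9.01 in diff. SpG, 7.73 in RS and 19.1 in SpG Nfya-CKO, and SpG Nfya-CKO had the lowest BC051142 level at 0.186.

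The somatic transcripts in SpG Nfya-CKO were measured beside the 4 genes. In other somatic cells Ptma was 1.82, Eef1a1 4.56, Cks2 0.239 and BC051142 6.11, each above its level in SpG Nfya-CKO. That population also held spermatid transcripts. The summed level of the 5 spermatid markers was 3.83 there, beside 0.579 in undiff. SpG and 28.5 in RS. Its BC051142 level is therefore not taken as a somatic one, and the part of germ cell RNA in these levels was not tested. The 356 genes at least 5-fold higher in other somatic cells than in undiff. SpG, and at a level of at least 1 there, held 1.06% of the UMIs of undiff. SpG and 5.05% of those of SpG Nfya-CKO. When these genes were left out of the scale, a step chosen after the data were seen, the log2 ratios against undiff. SpG were -3.93, -3.48, -2.84 and -2.70 for Ptma, Eef1a1, Cks2 and BC051142. The summed mitochondrial RNA was 39.2 in SpG Nfya-CKO and 95.3 in undiff. SpG, and 6 of the 7 mitochondrial genes compared were at least 2-fold lower, beside 3.40% of all genes. Of 4 nuclear RNAs compared, 1 was at least 2-fold higher, beside 4.76% of all genes. This was Malat1, at 8.92 against 3.47 and at 28.4 in other somatic cells. Neat1 (0.77) and Meg3 (0.84) were under 2-fold higher, whereas Kcnq1ot1 was 1.04 against 1.74, a log2 ratio of -0.70. A higher level was thus found for 3 of the 4, with a median log2 ratio of 0.80, beside 53.5% of all genes. Without mitochondrial and ribosomal protein genes in the scale, the log2 ratios were -4.00, -3.56, -2.89 and -2.76.

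The shortest genes were more often 2-fold apart than the longest. Among 13010 compared genes with a span in RefSeq (93.2% of those compared), 6.69% of decile 1 (154 to 4873 bases) were at least 2-fold lower in SpG Nfya-CKO and 8.84% were at least 2-fold higher. In decile 2, which holds Cks2, 4.77% were lower, in decile 8, which holds BC051142, 1.92% were lower, and in decile 10, the longest, 1.84% were lower and 5.76% higher. The median log2 ratio was 0.06 in decile 1 and 0.02 in decile 8.

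The scATAC-seq signal, which did not enter the choice of the genes, differed less than the RNA. The RNA ratio did enter it, so this contrast follows in part from the choice and is not read as a trait of the genes. Ptma had 86.3 per 1000000 in SpG Nfya-CKO against 129 in undiff. SpG, a ratio of 0.668. BC051142 had 30.5 against 41.8, a ratio of 0.731, and Cks2 had 39.4 against 47.5, a ratio of 0.829. Eef1a1 had 12.9 against 9.55, a ratio of 1.36, so its signal was higher where its RNA was lower. A ratio under 1 was thus found for 3 of the 4 genes, beside 52.5% of 29952 genes with signal, whose median ratio was 0.978. The ratio went with signal: over deciles of undiff. SpG signal its median was 1.21 in decile 5, which holds Eef1a1, 0.828 in decile 9, which holds BC051142, and 0.787 in decile 10, which holds Ptma and Cks2. The undiff. SpG signal is also the divisor of the ratio, so signal and ratio are not independent. Beside genes of like signal, 16.1% had a lower ratio than Ptma, 21.3% a lower ratio than BC051142, 63.8% a lower ratio than Cks2 and 67.4% a lower ratio than Eef1a1. None of the 4 genes was 2-fold lower in signal, and 3.23% of genes were.

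**Figure D4:**
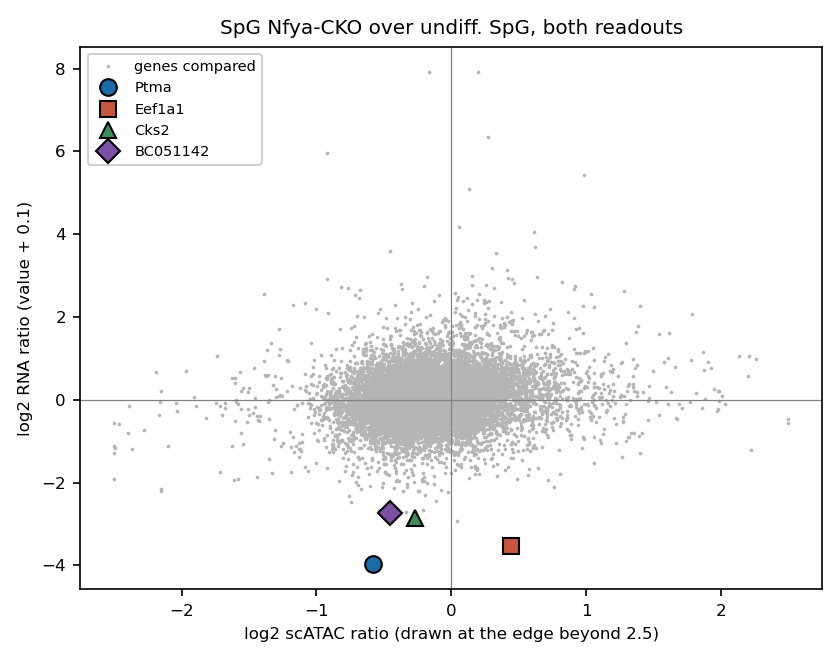
Log2 RNA ratio (pseudocount 0.1) against log2 scATAC-seq ratio of SpG Nfya-CKO to undiff. SpG, with grey points for the genes compared and large markers for the 4 genes. The RNA ratios of the 4 genes were between -3.98 and -2.73, and their scATAC-seq ratios were between -0.58 and 0.44.

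Relative to diff. SpG, the scATAC-seq ratios were 0.449 for Ptma, 0.536 for BC051142, 0.559 for Cks2 and 2.23 for Eef1a1. The share of signal on mitochondrial genes was 40.6% in undiff. SpG, 35.0% in diff. SpG and 46.0% in SpG Nfya-CKO. Without those genes in the scale the ratios to undiff. SpG were 0.735 for Ptma, 0.805 for BC051142, 0.912 for Cks2 and 1.49 for Eef1a1, and the median of all genes was 1.08.

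Signal over the 13 populations varied less than RNA. The fold from the highest to the lowest population was 2.78 for Ptma, 2.79 for Eef1a1, 2.49 for Cks2 and 6.45 for BC051142, compared with 118, 17.3, 25.2 and 298 in RNA. For Ptma and BC051142 the lowest signal was that of the unknown population, which held only 54 scATAC-seq cells. Ptma signal was highest in pL (205), diff. SpG (192) and eL/L/Z (145) and lowest in the unknown population (73.6). Diff. SpG thus had more Ptma signal than undiff. SpG but less Ptma RNA. Eef1a1 signal was highest in SpG Nfya-CKO (12.9), then in Sertoli cells (10.2) and ES (10.2), and lowest in mP/lP (4.64). Cks2 signal was highest in RS (74.3) and lowest in other somatic cells (29.8). BC051142 signal was 63.2 in pL, its highest value, where its RNA was 1.43, and it was 21.8 in Sertoli cells, 21.0 in other somatic cells and 9.80 in the unknown population. This order depended on mitochondrial genes, whose share of signal ran from 31.2% in pL to 63.8% in L/Z/eP and 64.5% in other somatic cells. Without them in the scale, Ptma and Cks2 signal was lowest in SpG Nfya-CKO and Eef1a1 signal was lowest in diff. SpG. On that scale Cks2 was highest in mP/lP and BC051142 in L/Z/eP, whereas Ptma remained highest in pL, Eef1a1 remained highest in SpG Nfya-CKO and BC051142 remained lowest in the unknown population. The Pearson correlation of log2 RNA and signal over the 13 populations was 0.51 for Ptma, 0.12 for Eef1a1, 0.16 for Cks2 and 0.27 for BC051142, which are descriptions over populations that share libraries.

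**Figure D5:**
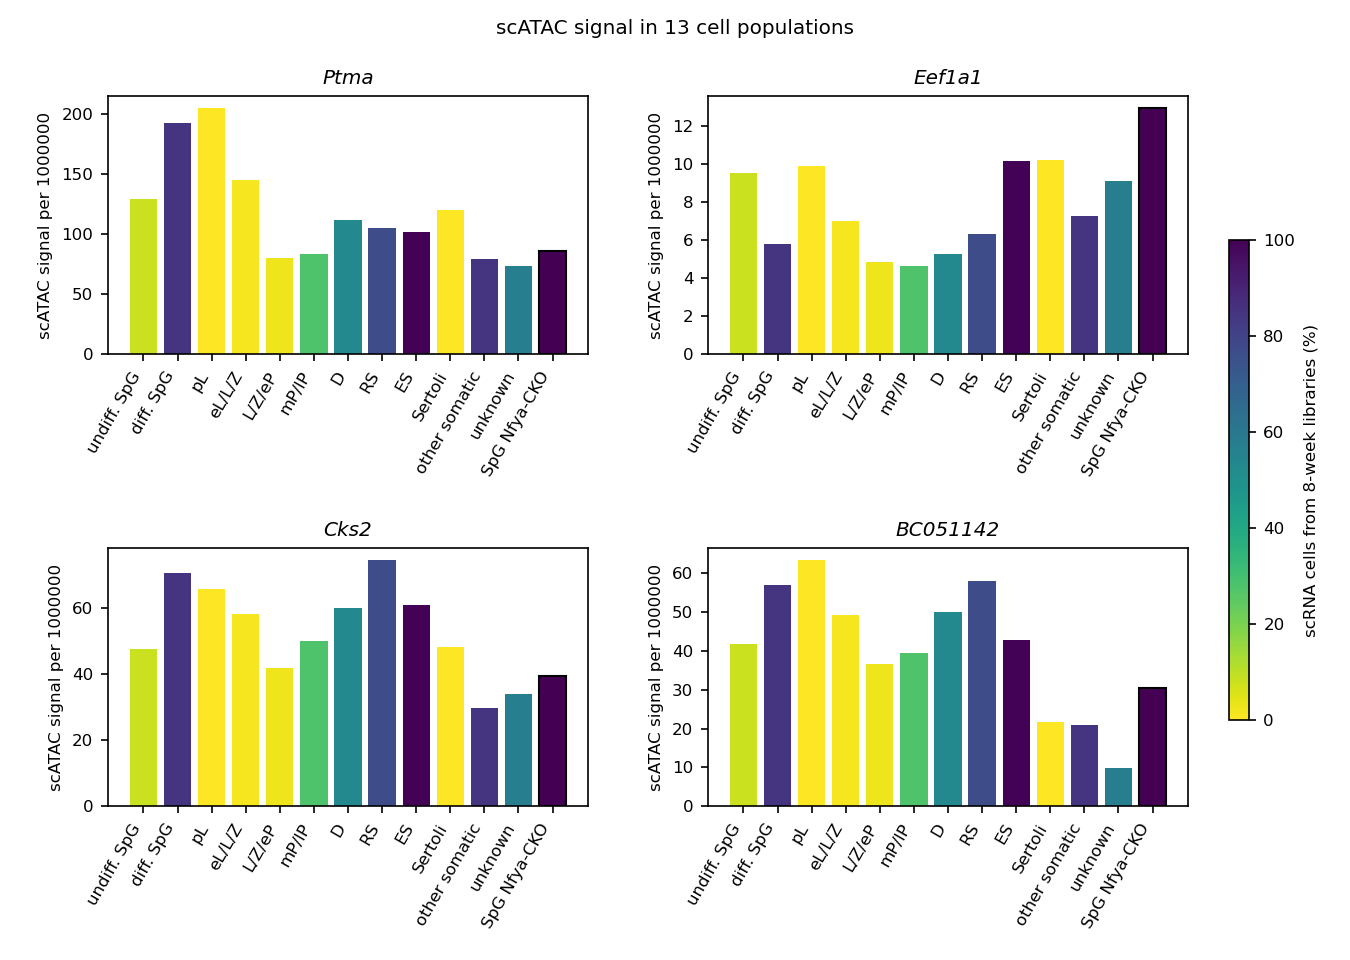
scATAC-seq signal (scaled to 1000000 per population, bars from 0) of each gene in the 13 populations, coloured as for RNA by the percentage of scRNA-seq cells from 8-week libraries. Eef1a1 was highest in SpG Nfya-CKO at 12.9, whereas Ptma, Cks2 and BC051142 were lower there than in undiff. SpG.

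RNA ratios of neighbouring genes against undiff. SpG were read beside those of the genes examined. Those genes were chosen for ratios among the lowest of all. A smaller difference in a neighbour therefore follows from the choice, and nothing is read from it. Pde6d, 12299 bases to the right of Ptma, was 0.224 against 0.780 UMIs per 10000, a log2 ratio of -1.44. Pde6d was thus at least 2-fold lower, as were 3.4% of all genes compared. Mto1, 4287 bases to the left of Eef1a1, had a log2 ratio of 0.69, and Slc17a5 to its right 0.05. Secisbp2, which begins 1019 bases after the end of Cks2, had a log2 ratio of 0.90. Both neighbours of BC051142, Btnl1 and Btnl4, and the left neighbours of Ptma and Cks2, Tex44 and Shc3, were too low to be compared.

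Profiles of the 4 genes over the 13 populations resembled different sets of genes. Likeness was the Pearson correlation of log2 levels over the 13 populations, computed against 10386 genes, and is a description, since the populations come from the same 5 libraries. Genes most like Ptma were Actr3 (0.97), Pdcd10, Hspa8, Fbxo18 and Zfp160, among which Hspa8 encodes a constitutive HSP70 chaperone. Those most like Eef1a1 included Rpl7 (0.98), Cox7a2l, Rpl24 and Gm3550, among which Rpl7 and Rpl24 encode ribosomal proteins. Those most like Cks2 included Trim34b (0.96), Gm15133, Gm48972 and Trim34a. Those most like BC051142 were Fsip2 (0.98), which encodes a protein of the sperm fibrous sheath, Spata17, Als2cr12, Slc6a21 and Cfap65. Of these 5, only Spata17 was kept over the 11 populations without SpG Nfya-CKO and the unknown population. There 2 of the 5 were kept for Ptma, 2 for Eef1a1 and 4 for Cks2. Among the 4 genes themselves, the correlation was 0.91 between Ptma and Eef1a1, 0.59 between Eef1a1 and Cks2, and 0.47 between Ptma and Cks2. BC051142 had correlations of -0.51 with Ptma, -0.39 with Eef1a1 and 0.23 with Cks2, which became -0.85, -0.78 and -0.06 over the 11 populations without SpG Nfya-CKO and the unknown population. Over the same 11 populations the correlation was 0.91 between Ptma and Eef1a1, 0.59 between Eef1a1 and Cks2, and 0.44 between Ptma and Cks2.

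Genes of the same pathways were counted in the same comparison with undiff. SpG. The shares of all genes set beside these lists include genes of low level, whose ratios the pseudocount holds down. Shares at like level were not computed. Of 9 compared genes listed under translation elongation, 4 were at least 2-fold lower and none higher, with a median log2 ratio of -0.88, beside 3.40% of all genes lower and 4.76% higher. These were Eef1a1 itself, which this ratio chose, Eef2 (-1.07), which moves the ribosome along the mRNA, Eif5a (-1.38) and Tpt1 (-1.46). Without Eef1a1, 3 of 8 were at least 2-fold lower, with a median of -0.86. Eef1b2 (-0.85) and Eef1g (-0.88), subunits of the complex that recharges eEF1A with GTP, were under 2-fold lower. Eef1d, a further subunit of that exchange complex, was 3.40 against 2.60, a log2 ratio of 0.37. Of 80 ribosomal protein genes, 25 were at least 2-fold lower and 5 higher, with a median of -0.72, and their summed level was 174 against 235. Any lower level was found for 59 of the 80 and a higher one for 21, beside 46.5% and 53.5% of all genes. Against diff. SpG, the median was -0.06 for the elongation genes and 0.15 for the ribosomal protein genes, beside 0.04 for all genes.

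Of 16 genes of acidic chromatin proteins and histone chaperones, 6 were at least 2-fold lower and none higher, beside 3.40% of all genes lower and 4.76% higher, with a median of -0.65. The 6 include Ptma itself, which this ratio chose, and without it 5 of 15 were lower, with a median of -0.60. The 5 were Set (-2.04), which encodes a chaperone and inhibitor of protein phosphatase 2A, Anp32b (-1.76), Anp32e (-1.25), which removes H2A.Z from nucleosomes, Npm1 (-1.20), the nucleolar histone chaperone, and Hmgb1 (-1.12). Ptms, the parathymosin gene and closest relative of Ptma in the list, was 0.837 against 1.17, a log2 ratio of -0.44. Hmgn1 (0.10) and Nap1l4 (0.10) were within 2-fold. Against diff. SpG the median of the list was -0.35.

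Of 16 compared genes of Cks proteins, cyclins and Cdk1 regulation, 3 were at least 2-fold lower and 2 higher, beside 3.40% of all genes lower and 4.76% higher, with a median of -0.47. The 3 include Cks2 itself (-2.86), which this ratio chose, and without it the counts were 2 lower and 2 higher of 15, with a median of -0.45. Cks1b, the paralog of Cks2 and cofactor of the SCF-Skp2 ubiquitin ligase, was 0.273 against 0.696, a log2 ratio of -1.10. Ccnb3, a cyclin of meiosis, was at -1.24. Cdk1, the kinase that Cks2 binds, was 0.637 against 0.644, a log2 ratio of -0.01, and Ccnb1 was at -0.87. Cdk2 (1.12) and Pkmyt1 (1.26), which encodes an inhibitory kinase of Cdk1, were at least 2-fold higher. Against diff. SpG the median of this list was -0.49. The median scATAC-seq ratios to undiff. SpG were 0.749 for the elongation list, 0.831 for ribosomal proteins, 0.715 for the acidic proteins and 0.746 for the Cks and cyclin list, beside 0.978 for all genes and 0.787 for the decile of genes with the highest signal.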

How the data were processed

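Nuclei of mouse testis were measured by scRNA-seq and scATAC-seq. The authors aligned RNA reads with STAR 2.7.10b to mm10, keeping unique alignments and 1 read per UMI and coordinate, and aligned scATAC-seq reads with BWA 0.7.12, shifting ends for Tn5, with bedtools 2.27.1. They filtered cells and removed doublets with Seurat 5.2.1 and DoubletFinder, or ArchR 1.0.3. The deposited cell tables give the UMI or fragment count per cell. The deposited gene matrices hold the authors' pooled values per population on a natural log scale, taken from the values themselves as ln(1 + x) with x summing to 10000. The paper's methods take promoter accessibility from coverage around the transcription start, and whether the deposited scATAC-seq matrix used that region is not stated in the sources used here. 15 further value columns were not used.

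Values were converted with Python 3.11.15, numpy 2.4.6 and pandas 2.3.3 to UMIs per 10000 and, for scATAC-seq, to a sum of 1000000. Figures were drawn with matplotlib 3.10.9. RNA ratios used a pseudocount of 0.1 and genes with a pair mean of at least 0.05, and likeness used genes with a mean of at least 0.2. Each condition is 1 library, so no test, interval or p-value was computed, and cells were not treated as replicates. The scripts were tested on simulated data. Genes named beyond the 4 are members of the pathway and marker lists, the 5 genes most like each, their neighbours, the genes next in the order of RNA ratios, and Nfya, of which some are not reported here. The 4 genes and the lists were chosen with earlier results of these data known. 49 cells without a library name were counted in their populations only. Alternatives changed the pseudocount, scale, filter, control population, measure of likeness and motif.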

Additional observations from a re-analysis of the deposited data

How the results depend on the processing

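The RNA ratios of the 4 genes against undiff. SpG kept their direction under every alternative. This ratio chose the genes, and a pseudocount added to both levels cannot turn its direction, so nothing is read from that. Among 120 values computed under 25 alternatives, many of them counts, 29 moved by more than 1.5 times. No ratio of the 4 genes among them changed direction, which a change of pseudocount cannot do. Outside these values, the median scATAC-seq ratio of all genes went from 0.978 to 1.08 without mitochondrial genes. The correlation of Cks2 and BC051142 went from 0.23 to -0.06 over 11 populations. With a pseudocount of 1 the log2 ratios were -3.08 for Ptma, -1.06 for Cks2 and -1.24 for BC051142, and with 0.01 that of Cks2 was -3.70. With undiff. and diff. SpG weighted by cells as the control, Eef1a1 was at -2.88 and BC051142 at -4.29, and with pL, a control chosen after seeing the data, Ptma was at -5.11 and Eef1a1 at -2.67. Genes at least 2-fold lower numbered 1041 with a pseudocount of 0.01 and 45 with 1, compared with 475, and those 2-fold higher 1564 and 43, compared with 664, or 1483 against pL. Against diff. SpG, a pseudocount of 1 gave -1.16 for Ptma, -0.24 for Cks2 and -3.30 for BC051142, with 132 genes lower and 65 higher, and 0.01 gave 2358 higher. At a pseudocount of 1, the genes at least 2-fold lower were 2 of the elongation list, 1 of the Cks and cyclin list, 4 of the acidic proteins and 5 of the ribosomal proteins, beside 0.322% of all genes. These counts include Eef1a1, Cks2 and Ptma, which this ratio chose, so nothing is read from the counts that hold them. The 1 gene of the Cks and cyclin list was Cks2 itself. The scATAC-seq ratio of Eef1a1 was 2.23 against diff. SpG. Of the 5 genes most like each gene, Spearman's measure kept 2 for Ptma, 3 for Eef1a1 and 1 for BC051142, and 11 populations kept 2, 2 and 1. No paired analysis was possible because each condition is 1 library. Columns pooled over libraries did not allow a library to be left out, and low levels, such as that of Cks2 in SpG Nfya-CKO, depend most on the pseudocount. The cause of these shifts was not tested, other than the pseudocount's own weight on low values.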
